A study of Rattus norvegicus with 20 samples.

Results

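Genes of mitosis and DNA replication were examined in blood cells of 2 inbred rat strains, Lewis (LEW) and Wistar Kyoto (WKY), fed either a standard chow (STD) or a cafeteria diet (CAF), an energy-dense diet of varied palatable human foods. The 38 genes were chosen by their known roles in the helicase that opens DNA, the replication clamp, nucleotide supply, the mitotic cyclins and kinases, the spindle, the centromere and the exit from mitosis. Earlier results of these data were known when the list was chosen. The array annotation gave 33 of the 38 a probe set of their own, out of 14497 genes so named, and Mki67, Cenpe, Cenpf, Mcm3 and Mcm4 were not analysed here. The 4 groups, LEW STD, LEW CAF, WKY STD and WKY CAF, held 5 male rats each (LEW/Crl and WKY/NCrl), with 1 Rat Gene 1.0 ST array per rat, 20 arrays in all. All rats were 15 weeks old, had spent 7 weeks on their diet and were fasted for 9 h before blood was drawn. By its labels the material was peripheral blood mononuclear cells, and the methods of the study add that RNA came from the part of them that stuck to plastic, taken as circulating monocytes. Each strain is 1 inbred genotype, so that a strain comparison is one of whole genetic backgrounds and not of a defined allele. The methods of the study also give a higher starting body weight for LEW than for WKY rats. Values are log2 probe set signals, on which a difference of 1 is a factor of 2, and array medians lay between 6.83 and 6.90. Arrays of 4 rats (LEW STD rats 2 and 3, LEW CAF rat 2 and WKY STD rat 1) stood apart in their heat shock genes, and results without them are given after those of all 20 for the members and for the counts of other cell cycle genes.

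A cell that divides copies its DNA in S phase and separates the copies in mitosis, and the transcripts of this machinery rise and fall with the cycle. Genes for replication are largely switched on by E2F factors at the start of S phase, and genes for mitosis later, through promoters that hold CCAAT boxes and the cell cycle homology element. Blood monocytes are formed from dividing progenitors in the marrow and mostly do not divide in the circulation, so that dividing cells are few in blood. In bulk RNA, fewer cells of a type and less RNA per cell cannot be told apart.

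Promoter sequences are shown for Pcna, Rrm1, Top2a and Kif23, 4 members that were higher in WKY than in LEW when both diets were averaged, with the values given further on. Each is the stretch of 250 bases before the start of the gene in RefSeq on build GRCr8, written in the direction of the gene, and capitals mark a CCAAT box or the element TTTGAA on either strand. The stretches are chr3:139955821-139956070 on the minus strand for Pcna, chr1:166235654-166235903 on the plus strand for Rrm1, chr10:84473094-84473343 on the minus strand for Top2a and chr8:71320585-71320834 on the minus strand for Kif23.
Pcna: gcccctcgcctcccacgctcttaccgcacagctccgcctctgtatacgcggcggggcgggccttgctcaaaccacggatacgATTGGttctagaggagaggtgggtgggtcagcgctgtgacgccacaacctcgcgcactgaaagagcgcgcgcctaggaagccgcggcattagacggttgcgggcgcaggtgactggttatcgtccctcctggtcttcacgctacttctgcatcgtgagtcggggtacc
Rrm1: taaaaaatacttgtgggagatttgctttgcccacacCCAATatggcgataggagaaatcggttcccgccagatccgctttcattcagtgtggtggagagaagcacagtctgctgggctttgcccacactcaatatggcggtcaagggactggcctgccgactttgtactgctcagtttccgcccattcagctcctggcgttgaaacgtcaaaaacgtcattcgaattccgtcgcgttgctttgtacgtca
Top2a: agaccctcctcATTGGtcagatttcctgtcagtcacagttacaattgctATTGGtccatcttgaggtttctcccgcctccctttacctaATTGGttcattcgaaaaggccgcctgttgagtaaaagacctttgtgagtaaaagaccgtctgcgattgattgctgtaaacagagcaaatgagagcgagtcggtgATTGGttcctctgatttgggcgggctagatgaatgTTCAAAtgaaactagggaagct
Kif23: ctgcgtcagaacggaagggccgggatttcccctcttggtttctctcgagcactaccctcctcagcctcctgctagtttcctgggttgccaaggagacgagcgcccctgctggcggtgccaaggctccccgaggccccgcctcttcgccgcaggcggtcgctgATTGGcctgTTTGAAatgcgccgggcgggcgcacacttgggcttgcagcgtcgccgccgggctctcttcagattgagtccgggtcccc

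The Top2a promoter held 4 CCAAT boxes and 1 TTTGAA element, the Kif23 promoter 1 of each, and the promoters of Pcna and Rrm1 1 CCAAT box each and no TTTGAA. Of the 33 measured members, 28 had a promoter in the table. CCAAT, searched on both strands, stood in 20 of the 28 (71.4%) and in 34.3% of all 27457 promoters. The share was the same in both classes, with 5 of 7 replication members and 15 of 21 mitotic members (71.4% each). TTTGAA stood in 10 of the 28 (35.7%) against 16% of all promoters. The 10 comprised 9 of 21 mitotic members and 1 of 7 replication members, Mcm2. An E2F site spelled TTTCCCGC, TTTGGCGC, TTTCGCGC or TTTGCCGC was found in 1.81% of all promoters. It stood in 5 of the 7 replication members (Mcm2, Mcm5, Mcm6, Mcm7 and Tyms) and in 1 of the 21 mitotic members, Cdk1. These are matches of letters in a fixed window, the searches for different motifs can overlap, and none of them is a measurement of binding.

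The first question was whether the strains differed on the CAF diet. Of the 33 members, 2 were higher in WKY than in LEW at an adjusted p under 0.05 by limma with Benjamini-Hochberg adjustment over all 28826 probe sets, 0 were lower and 31 did not pass. Over all probe sets 7.58% passed in this comparison, 4.24% higher and 3.34% lower in WKY, so the share among the members was near the background. The 2 were Pcna, the sliding clamp that holds DNA polymerases on the template in replication and repair, and Rrm1, the large subunit of ribonucleotide reductase, which makes deoxynucleotides. The median difference of the members was 0.05, against -0.01 over all probe sets.

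On STD the strains differed in 4 of 33 members, again with Pcna and Rrm1 higher in WKY. Aurka, the kinase that matures centrosomes and builds the spindle, and Ccnb1, the cyclin that starts mitosis with Cdk1, were lower in WKY. Over all probe sets 11.3% passed, 5.88% higher and 5.38% lower. The median member difference was 0.05, against -0.0026 for all probe sets.

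Averaged over the diets, 6 of 33 members differed between the strains, 5 higher in WKY (Pcna, Rrm1, Top2a, Kif23 and Ccnb2) and 1 lower (Aurka). Over all probe sets 17.2% passed, 8.74% higher and 8.42% lower, and 6 of 33 members is close to that background. This comparison uses the same rats as the other 2 and is not a further test of them. Of the remaining 27 members, 9 more had an unadjusted P under 0.05 in it. The share of all probe sets at that threshold is not given here, so this count has no background beside it.

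Pcna gave one of the clearest differences. In LEW rats it measured 11.67, 11.79, 11.73, 11.43 and 11.41 on STD and 11.44, 11.53, 11.45, 11.38 and 11.49 on CAF. In WKY rats it measured 12.15, 12.23, 12.15, 12.03 and 12.00 on STD and 12.07, 11.89, 11.75, 11.83 and 11.85 on CAF. Within each diet every WKY rat stood above every LEW rat, while the lowest WKY CAF rat, at 11.75, lay below the highest LEW STD rat, at 11.79. The strain difference was 0.42 on CAF (SE 0.07, 1.34-fold, limma adjusted p = 0.000773) and 0.50 on STD (SE 0.07, 1.42-fold, limma adjusted p = 8.86e-05). The strain differences on the 2 diets differed by -0.08 (95% interval -0.30 to 0.13), which did not pass the test of the interaction.

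Rrm1 separated the strains altogether. LEW rats measured 10.67, 10.60, 10.69, 10.59 and 10.73 on STD and 10.54, 10.53, 10.55, 10.70 and 10.63 on CAF. WKY rats measured 11.13, 11.16, 11.11, 10.99 and 11.10 on STD and 11.10, 11.08, 10.84, 10.93 and 10.92 on CAF. All 10 WKY rats lay above all 10 LEW rats, and Rrm1 was the 1 member of 33 for which this held, against 3.06% of all probe sets in either direction. The difference was 0.39 on CAF (SE 0.05, 1.31-fold, limma adjusted p = 6.5e-05) and 0.44 on STD (SE 0.05, 1.36-fold, limma adjusted p = 1.02e-05). A second Rrm1 probe set was much dimmer, with group means of 5.28 to 5.43. It differed by 0.13 on CAF and 0.09 on STD in the same direction and passed the limma test on neither diet.

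The partner subunit Rrm2, whose amount follows S phase more closely, was more scattered. LEW rats measured 6.54, 7.19, 7.11, 7.08 and 6.78 on STD and 6.85, 7.68, 6.63, 6.49 and 6.88 on CAF. WKY rats measured 7.09, 7.77, 7.42, 7.11 and 8.15 on STD and 7.35, 7.22, 6.86, 7.09 and 7.55 on CAF. The groups overlapped, and the differences of 0.57 on STD and 0.31 on CAF did not pass the limma test. The second Rrm2 probe set, with group means of 5.57 to 5.77, differed by 0.08 on STD and 0.07 on CAF. Tyms, which makes thymidylate, completed the nucleotide genes and overlapped between the strains on STD, with a difference of -0.05. On CAF it lay between 6.74 and 6.87 in LEW and between 6.90 and 7.09 in WKY with no overlap, a difference of 0.20 that did not pass (limma adjusted p = 0.177).

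**Figure D1:**
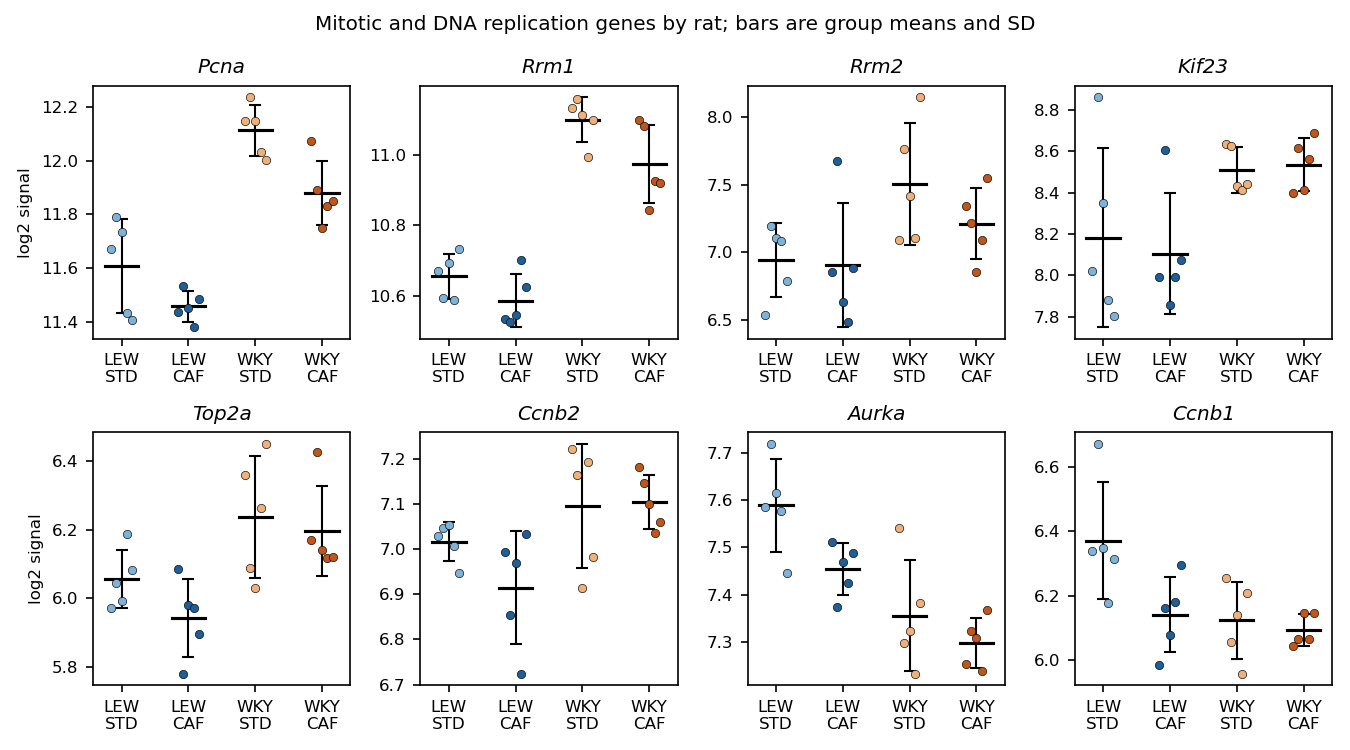
Log2 signal of 8 members in each rat, by group, with 1 point per rat, the group mean as a line and the SD as bars. The vertical axes differ between genes and do not start at 0. Pcna and Rrm1 are higher in WKY on both diets and Aurka is lower on STD, while the Rrm2, Kif23 and Ccnb1 groups overlap.

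The 4 measured subunits of the replicative helicase, Mcm2, Mcm5, Mcm6 and Mcm7, did not follow Pcna and Rrm1. Their strain differences ran from -0.01 to 0.14 on CAF and from -0.13 to -0.07 on STD, and none passed the test on either diet. Their group means spanned 0.10 for Mcm2, 0.15 for Mcm5, 0.13 for Mcm6 and 0.12 for Mcm7.

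Among the mitotic members, Aurka was lower in WKY. LEW rats measured 7.59, 7.72, 7.62, 7.58 and 7.45 on STD and 7.51, 7.37, 7.47, 7.42 and 7.49 on CAF. WKY rats measured 7.54, 7.30, 7.32, 7.23 and 7.38 on STD and 7.25, 7.32, 7.31, 7.24 and 7.37 on CAF. On CAF every WKY rat lay below every LEW rat, and on STD WKY rat 1 overlapped the LEW rats. The difference was -0.23 on STD (SE 0.06, limma adjusted p = 0.0089) and -0.16 on CAF (SE 0.06, limma adjusted p = 0.109), and averaged -0.19 (limma adjusted p = 0.0014). The related kinase Aurkb, of the chromosomal passenger complex, differed by -0.28 on STD and -0.12 on CAF and did not pass.

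Ccnb1 measured 6.34, 6.67, 6.35, 6.18 and 6.31 in LEW STD rats and 6.25, 6.05, 6.14, 5.96 and 6.21 in WKY STD rats. On CAF it measured 5.99, 6.16, 6.08, 6.18 and 6.30 in LEW and 6.04, 6.07, 6.15, 6.06 and 6.14 in WKY. LEW STD had the highest mean, and the groups overlapped. The strain difference was -0.25 on STD (SE 0.08, limma adjusted p = 0.0425) and -0.05 on CAF, where it did not pass. The interaction, 0.20 (95% interval -0.03 to 0.43), did not pass either. The call on STD was lost in 8 of the 10 fits that left out 1 rat of the 2 groups, all but those without LEW STD rat 4 or WKY STD rat 1, and leaving out LEW STD rat 2 gave -0.17 (limma adjusted p = 0.109).

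Ccnb2, a second mitotic cyclin, measured 7.03, 7.05, 7.05, 7.01 and 6.95 in LEW STD rats and 6.99, 6.86, 6.97, 6.72 and 7.03 in LEW CAF rats. It measured 7.22, 7.16, 6.91, 7.19 and 6.98 in WKY STD rats and 7.18, 7.15, 7.10, 7.04 and 7.06 in WKY CAF rats. The groups did not overlap on CAF and overlapped on STD. The averaged difference was 0.13 (SE 0.05, limma adjusted p = 0.0456). A second, dimmer Ccnb2 probe set, with group means of 5.05 to 5.73, differed by 0.02, with SDs of 0.28 to 1.06 within groups. The mean of both probe sets gave 0.08 (limma adjusted p = 0.795). The call was lost in 15 of the 20 fits that left out 1 rat, all but those without rat 3 or 5 of WKY STD, rat 1 or 5 of LEW CAF, or rat 4 of WKY CAF.

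Top2a, the enzyme that untangles sister DNA before chromosomes part, measured 5.97, 6.05, 5.99, 6.19 and 6.08 in LEW STD rats and 6.09, 5.78, 5.98, 5.97 and 5.90 in LEW CAF rats. It measured 6.36, 6.09, 6.03, 6.26 and 6.45 in WKY STD rats and 6.17, 6.43, 6.14, 6.12 and 6.12 in WKY CAF rats. The strains did not overlap on CAF, and the difference there, 0.25, did not pass (limma adjusted p = 0.0614), though it did without LEW CAF rat 1 (0.29, limma adjusted p = 0.0454). Averaged over diets it was 0.22 (SE 0.06, 1.16-fold, limma adjusted p = 0.00977).

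Kif23, a motor of the midzone that divides the cell, differed by 0.43 on CAF and 0.33 on STD, without passing, and by 0.38 on average (SE 0.11, limma adjusted p = 0.0229). LEW rats measured 8.02, 8.86, 8.35, 7.88 and 7.80 on STD and 7.99, 8.61, 7.86, 7.99 and 8.08 on CAF. WKY rats measured 8.63, 8.63, 8.43, 8.41 and 8.44 on STD and 8.40, 8.61, 8.41, 8.56 and 8.69 on CAF. The WKY rats lay between 8.40 and 8.69, LEW STD rat 2 lay above that range, LEW CAF rat 2 within it and the other 8 LEW rats below it.

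**Figure D2:**
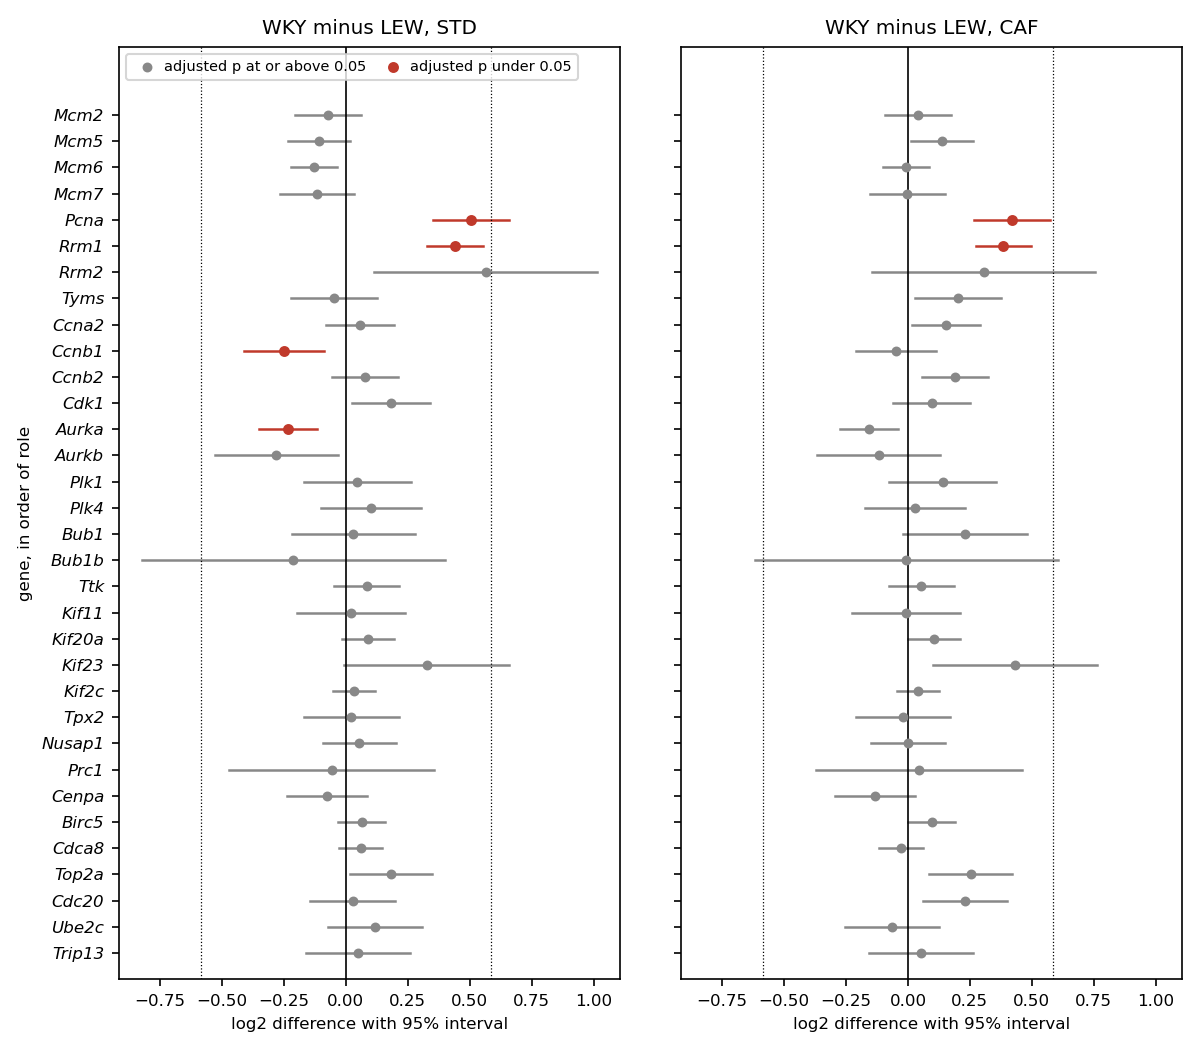
Strain difference (WKY minus LEW, log2) of each of the 33 members on STD (left) and CAF (right), with its 95% interval from limma. Dotted lines mark a factor of 1.5 in either direction. Red marks the 4 members that passed on STD and the 2 that passed on CAF, and most of the other intervals lie between the dotted lines.

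On CAF 6 of 33 members did not overlap between the strains, with Pcna, Rrm1, Tyms, Ccnb2 and Top2a above and Aurka below in WKY, against 7.8% of all probe sets. On STD 2 of 33, Pcna and Rrm1, did not overlap, against 8.46% of all probe sets. The sizes were small for most members. The 95% interval excluded a factor of 1.5 in either direction for 30 of 33 members on CAF and 29 on STD, as for 92.7% and 91.6% of all probe sets. The exceptions were Rrm2, Kif23 and Bub1b on both diets, with Pcna on STD. The members counted include dim ones with means below the median of all probe sets. Without a detection call, a narrow interval there does not show that the transcript was unchanged.

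The other members did not pass in any strain comparison. The range of their 4 group means was 0.19 for Ccna2 and 0.24 for Cdk1, the cyclin and the kinase of the mitotic complex. It was 0.14 for Plk1, 0.23 for Plk4 and 0.23 for Bub1, kinases of mitosis, centriole copying and the spindle checkpoint, and 0.16 for the checkpoint kinase Ttk. Among spindle motors and spindle proteins it was 0.08 for Kif11, 0.11 for Kif20a, 0.08 for Kif2c, 0.05 for Tpx2, 0.07 for Nusap1 and 0.06 for Prc1. It was 0.13 for the centromeric histone Cenpa, and 0.11 for Birc5 and 0.09 for Cdca8, both of the chromosomal passenger complex. For genes of the exit from mitosis and of checkpoint silencing it was 0.23 for Cdc20, 0.19 for Ube2c and 0.10 for Trip13. The remaining members spanned 0.65 (Pcna), 0.60 (Rrm2), 0.51 (Rrm1), 0.51 (Bub1b), 0.43 (Kif23), 0.30 (Top2a), 0.29 (Aurka), 0.28 (Ccnb1), 0.28 (Aurkb), 0.20 (Tyms) and 0.19 (Ccnb2). Of the 33 members, 16 had a mean below 6.86, the median of all probe sets, and the files give no detection call.

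Of the 33 members, between 8 and 24 stood above their group mean in any 1 rat, and the median deviation of a rat ranged from -0.08 to 0.08. The fewest were in LEW STD rat 1, with 8 above and a median deviation of -0.08, and the most in WKY STD rat 1, with 24 above and 0.08. The SD within groups had a median of 0.13 over the members and of 0.11 over all probe sets. It was over 0.3 for 3 members, 0.51 for Bub1b, 0.37 for Rrm2 and 0.34 for Prc1.

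Bub1b, a kinase-like protein of the spindle checkpoint, had its spread in a few arrays. It measured 5.54, 7.37, 6.32, 5.88 and 5.50 in LEW STD rats and 5.52, 6.10, 5.47, 5.50 and 5.49 in LEW CAF rats. It measured 7.00, 5.63, 5.65, 5.52 and 5.75 in WKY STD rats and 5.58, 5.59, 5.62, 5.64 and 5.63 in WKY CAF rats. LEW STD rats 2 and 3, LEW CAF rat 2 and WKY STD rat 1 stood above the remaining 16 rats, which lay between 5.47 and 5.88. The same 4 arrays stood apart in 6 heat shock genes (Dnajb1, Hsph1, Hsp90aa1, Hspe1, Hspd1 and Bag3), whose mean was 11.76, 11.01, 11.30 and 10.99 in them, in that order, and 9.92 to 10.11 in the other 16. Of all 28826 probe sets, 0.423% were higher in all 4 of these arrays than in all others, and Bub1b was the 1 member among them.

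In LEW alone, the 3 arrays concerned also stood above the other 7 LEW arrays in Rrm2, Kif23 and Prc1, and below them in Aurkb and Cdca8. Prc1, which bundles the microtubules of the midzone, measured 7.69 and 7.38 in LEW STD rats 2 and 3 and 8.12 in LEW CAF rat 2, against 6.71 to 7.23 in the other LEW rats. Kif23 measured 8.86, 8.35 and 8.61 in these arrays, against 7.80 to 8.08 in the other LEW rats. WKY STD rat 1, at 7.12 for Prc1 and 8.63 for Kif23, lay within the range of the other WKY rats. Of all probe sets, 2.94% were higher and 2.7% lower in the 3 LEW arrays than in the other 7.

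**Figure D3:**
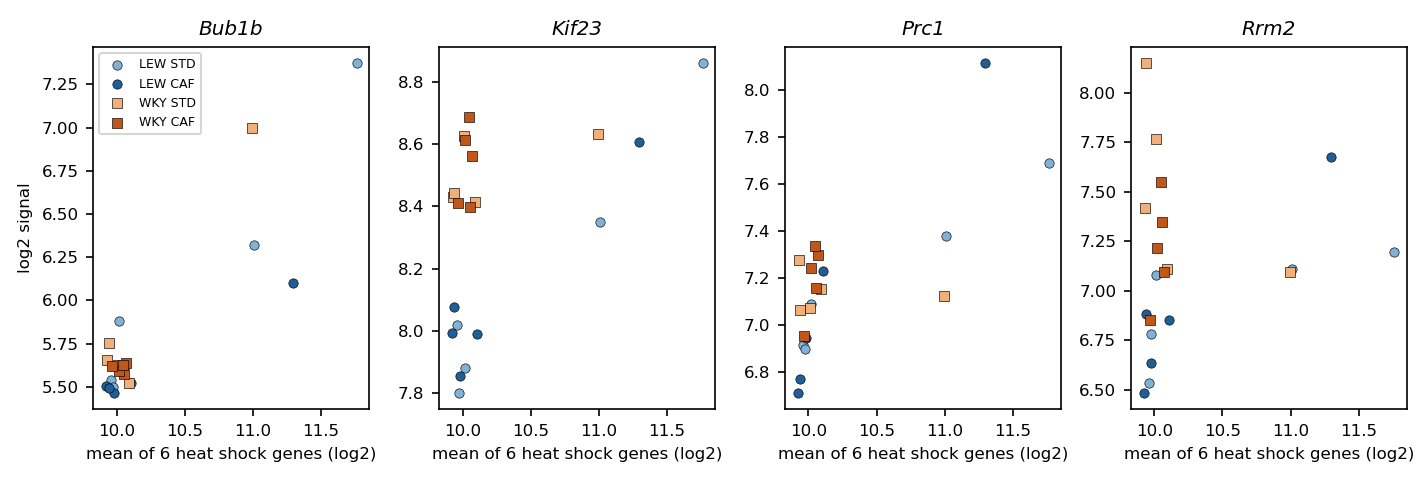
Log2 signal of Bub1b, Kif23, Prc1 and Rrm2 in each rat (vertical axis) against the mean of 6 heat shock genes in the same array (horizontal axis, log2), with 1 point per rat and colour and shape by group. The 4 arrays at 10.99 or more on the horizontal axis hold the 4 highest Bub1b values, and the 3 of them from LEW lie above the other LEW rats in all 4 genes.

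Without these 4 arrays, a choice made after seeing the data that left 3 LEW STD, 4 LEW CAF, 4 WKY STD and 5 WKY CAF rats, Kif23 was higher in WKY by 0.56 on CAF (SE 0.07, limma adjusted p = 0.000108) and by 0.58 on STD (SE 0.08, limma adjusted p = 0.000243). Pcna and Rrm1 kept their calls on both diets, with differences of 0.37 to 0.60. Aurka differed by -0.18 on CAF (limma adjusted p = 0.0299) and by -0.23 on STD (limma adjusted p = 0.0119). On STD Rrm2 differed by 0.81 (limma adjusted p = 0.0193) and Aurkb by -0.43 (limma adjusted p = 0.0157), and both passed in the average over diets. Ccna2 also passed there, at 0.15 (limma adjusted p = 0.0475). Prc1, which averaged -0.01 over all 20 arrays (95% interval -0.30 to 0.29) and did not pass, stood at 0.23 without the 4 arrays (limma adjusted p = 0.046), on the other side of 0. Ccnb1 on STD (-0.19, from -0.25) and Top2a (0.17, from 0.22) and Ccnb2 (0.12, from 0.13) on average no longer passed, with differences in the same direction. The count was then 4 members on CAF, 6 on STD and 8 on average, where 8.11%, 10.5% and 17.7% of all probe sets passed. Kif23, Rrm2, Prc1 and Aurkb are members in which the 3 removed LEW arrays stood apart from the other LEW arrays. Removing those arrays moved the LEW values of these members, so their calls here are not independent support for a strain difference. The part of the heat shock signal in these values was not tested.

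The second question was whether CAF changed these genes within a strain. At an adjusted p under 0.05 by limma, 0 of 33 members passed in LEW, 0 in WKY, 0 in the average over strains and 0 in the interaction of diet and strain, and 0 of 28826 probe sets passed in each. At an unadjusted P under 0.05, 4 members passed in LEW (1 higher and 3 lower on CAF), against 5.46% of all probe sets. In WKY 2 passed, both lower, against 8.81%. In the interaction 2 passed, against 5.95%. In the average over strains 6 passed, all lower, against 8.26%. The diet groups did not overlap for 0 of 33 members in either strain, against 0.989% of all probe sets in LEW and 2.07% in WKY. Without the 4 arrays of high heat shock values 0 members again passed in each of these comparisons. At an unadjusted P under 0.05 there were then 2 in LEW and 6 in WKY, with no share of all probe sets given beside them. The sign turned for 4 of 33 members in LEW, such as Kif23 (-0.08 to 0.08) and Plk1 (-0.09 to 0.06), for 4 in WKY and for 4 in the interaction.

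In LEW the members of the smallest P were Ccnb1, Mcm5 and Aurka, all not called after adjustment. Ccnb1 differed by -0.23 between CAF and STD, with the values of each rat given above. Mcm5, a helicase subunit, measured 8.37, 8.26, 8.24, 8.42 and 8.48 on STD and 8.08, 8.08, 8.27, 8.26 and 8.33 on CAF, a difference of -0.15. Aurka differed by -0.14. The limma adjusted p was 0.884 for each of the 3.

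In WKY the members of the smallest P were Pcna, Rrm1 and Plk4, also not called. Pcna differed by -0.23 (95% interval -0.39 to -0.08, limma adjusted p = 0.313), and 4 of the 5 CAF rats lay below the lowest STD rat. Rrm1 differed by -0.12 (limma adjusted p = 0.514). Plk4, which starts centriole duplication, measured 6.61, 6.58, 6.41, 6.69 and 6.59 on STD and 6.39, 6.54, 6.42, 6.25 and 6.29 on CAF, a difference of -0.20 (limma adjusted p = 0.569). Averaged over strains, the smallest P values were those of Pcna at -0.19 (limma adjusted p = 0.365), Rrm1 at -0.10 and Aurka at -0.10.

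In the interaction the smallest P values belonged to Mcm5 (0.24, limma adjusted p = 0.755), Tyms (0.25, limma adjusted p = 0.837) and Mcm6 (0.12, limma adjusted p = 0.858). WKY rats measured 8.34, 8.25, 8.15, 8.27 and 8.23 for Mcm5 on STD and 8.40, 8.43, 8.24, 8.33 and 8.32 on CAF, with group means of 8.25 and 8.34 in WKY against 8.36 and 8.21 in LEW. Tyms measured 6.95, 6.85, 6.80, 7.18 and 6.90 in LEW STD, 6.75, 6.78, 6.87, 6.85 and 6.74 in LEW CAF, 7.12, 6.86, 7.01, 6.56 and 6.90 in WKY STD and 6.90, 6.95, 7.04, 7.09 and 7.03 in WKY CAF. Mcm6 measured 8.92, 8.83, 9.02, 8.98 and 9.00 in LEW STD, 8.83, 8.90, 8.88, 8.92 and 8.99 in LEW CAF, 8.79, 8.83, 8.74, 8.92 and 8.83 in WKY STD and 8.90, 8.88, 8.92, 8.93 and 8.85 in WKY CAF. All 4 helicase subunits had interaction values between 0.11 and 0.24, and none passed the test.

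**Figure D4:**
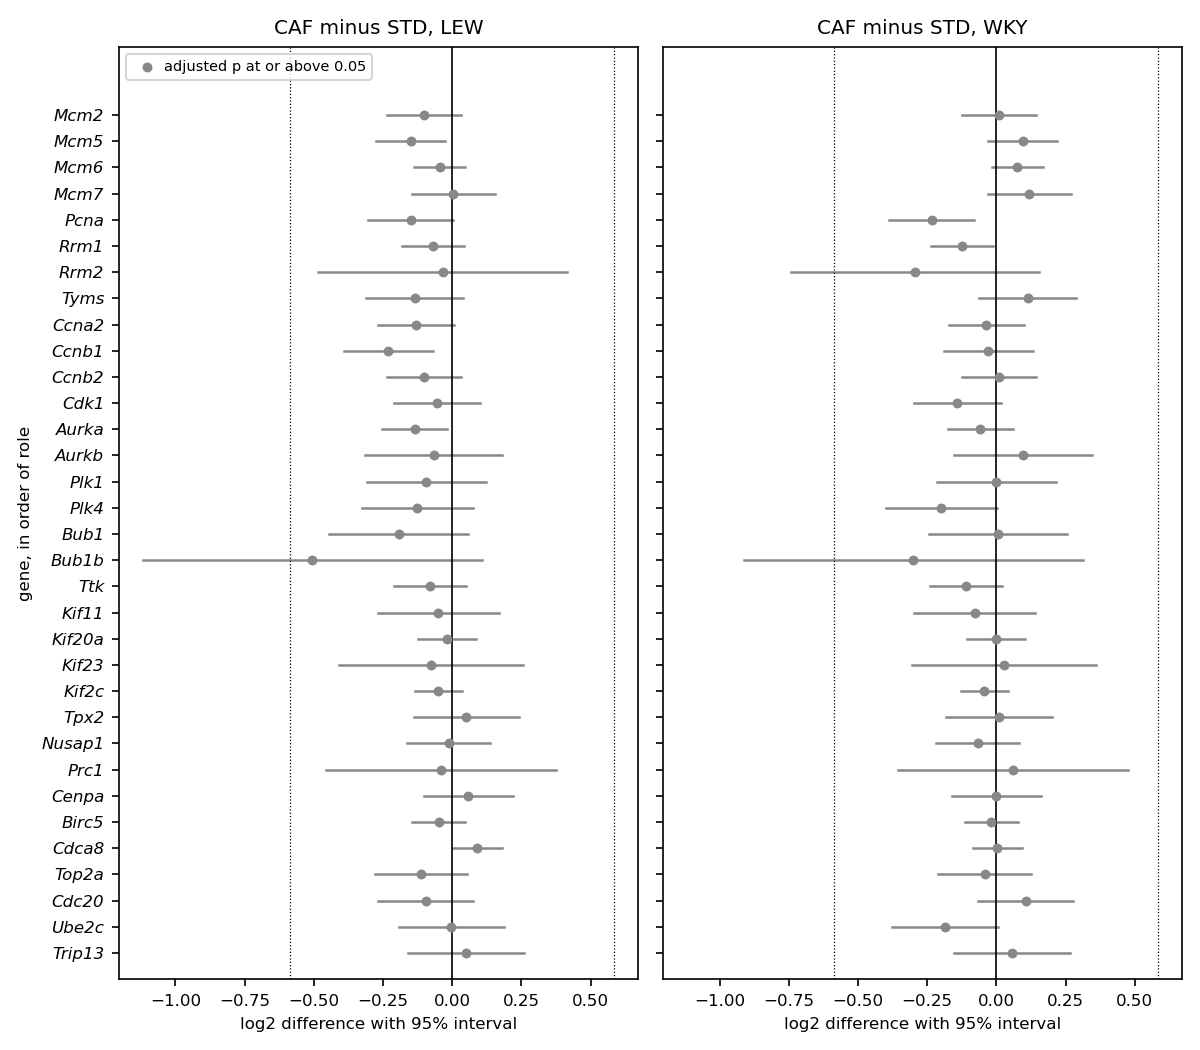
Diet difference (CAF minus STD, log2) of each of the 33 members in LEW (left) and WKY (right), with its 95% interval from limma. Dotted lines mark a factor of 1.5 in either direction. No member passed in either strain, and in LEW 28 of the 33 points lie below 0.

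The diet differences were small for nearly all members. In LEW 28 of 33 members were below 0, with a median of -0.07 against -0.0042 for all probe sets, and in WKY 19 of 33 were below 0, with a median of -0.0025 against -0.0084. The members share the same 10 arrays in each strain and are not independent of each other. The 95% interval excluded a factor of 1.5 for 32 of 33 members in LEW and 31 in WKY, against 97.4% and 96.5% of all probe sets. The exceptions were Bub1b in both strains and Rrm2 in WKY. The limit on dim members given for the strain intervals applies here too.

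Of 146 other genes of the cell cycle, 115 had a probe set. On CAF 8 of the 115 differed between the strains, 6 higher in WKY and 2 lower, on STD 16, 3 higher and 13 lower, and on average 22, 8 higher and 14 lower. These shares, like those of the 33 members, stand beside 7.58%, 11.3% and 17.2% of all probe sets. Without the 4 arrays of high heat shock values the count on CAF was 13, 7 higher and 6 lower. It was 12 on STD, 5 higher and 7 lower, and 28 on average, 13 higher and 15 lower. The split by direction on each diet thus changed in this fit, which also had fewer rats. No gene of the 115 passed in a diet comparison, with 5 in LEW and 4 in WKY at an unadjusted P under 0.05.

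On CAF the genes that passed were Cdca2 (0.70), a targeting subunit of protein phosphatase 1 on mitotic chromosomes, the repair gene Brca1 (0.34), the kinetochore gene Spc25 (0.34), the origin licensing factor Cdc6 (0.33), the clamp loader gene Rfc3 (0.27) and the pocket protein gene Rbl2 (0.24), with Timeless (-0.30) and the polymerase subunit Pold3 (-0.26) lower in WKY. On STD the 8 of the smallest p were Cdca2 (0.79) and the CDK inhibitor Cdkn1a (0.66) on the higher side. On the lower side they were Timeless (-0.38), the single-strand binding subunit Rpa1 (-0.39), Cdk2 (-0.24), Pold3 (-0.19), the inhibitor of the anaphase-promoting complex Fbxo5 (-0.39) and the checkpoint kinase Chek2 (-0.43). On average the 8 of the smallest p were Cdca2 (0.74), Cdkn1a (0.59), Cdc6 (0.32) and Brca1 (0.23), higher in WKY, and Chek2 (-0.37), Timeless (-0.34), Pold3 (-0.22) and Cdk2 (-0.18), lower. On average 3 of the 29 replication fork genes were lower and 0 higher. In the kinetochore list 4 of 9 were lower and 1 higher, and of 21 other mitotic genes 3 were lower and 3 higher. Of 9 DNA damage checkpoint genes 2 were lower and 1 higher, and of 8 G1 cyclins and kinases 2 were lower. The lists of E2F and pocket proteins, CDK inhibitors and origin licensing each had 1 higher and 0 lower, and the other lists had none. Over all probe sets 8.42% were lower and 8.74% higher. On CAF the kinetochore list had 1 higher and 0 lower. Counts per list without the 4 arrays are not given here.

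**Figure D5:**
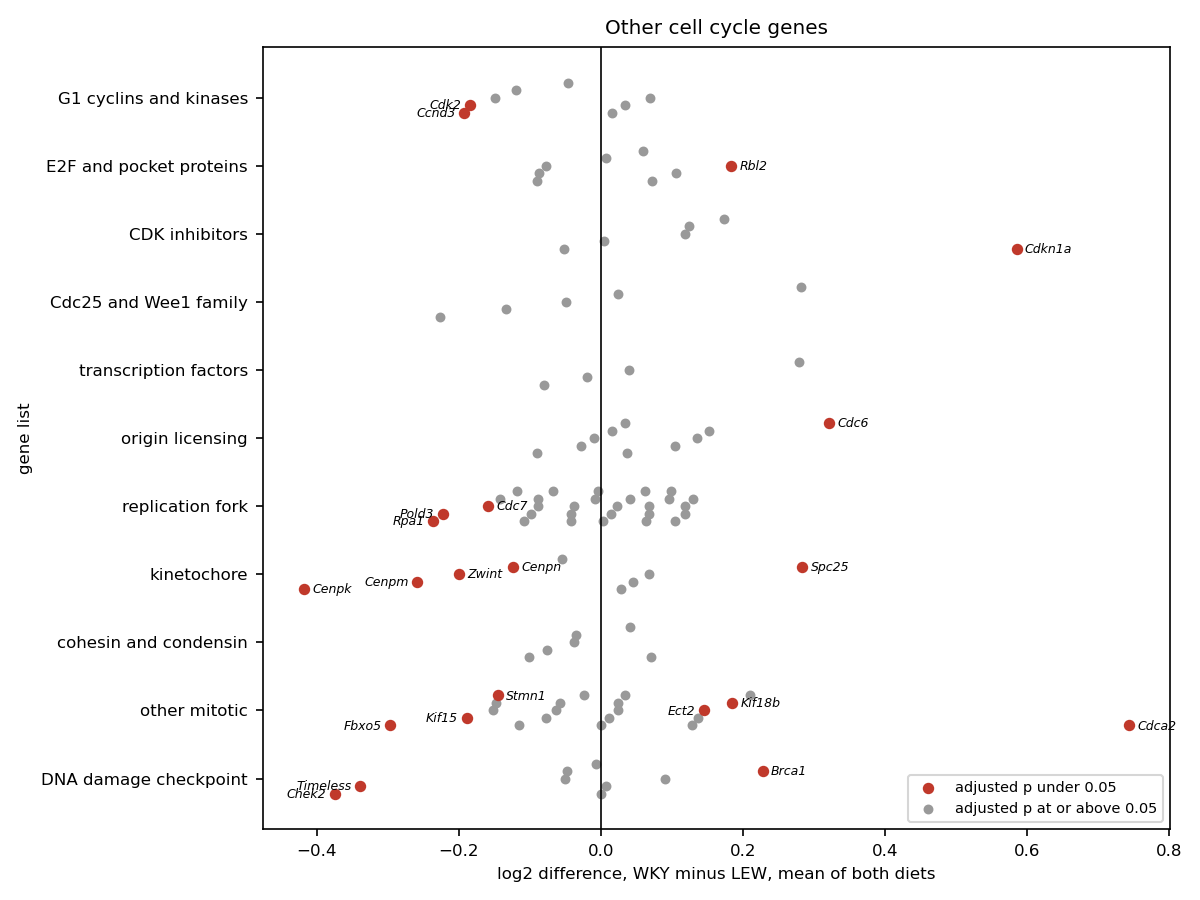
Strain difference (WKY minus LEW, log2, mean of both diets) of 115 other cell cycle genes, 1 point per gene, by list. Red and a name mark the 22 genes that passed the test, with 8 to the right and 14 to the left of 0. The vertical offset within a list has no meaning.

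Markers of several blood cell types also differed between the strains. The 8 markers of natural killer cells had a mean between 10.07 and 10.69 in WKY rats and between 9.15 and 9.85 in LEW rats, and 6 of 8 were higher in WKY on CAF and 7 on STD, such as Klrb1a (1.63 and 2.05) and Gzma (1.61 and 1.71), with 1 of 8 lower on each diet. The 10 neutrophil markers had a mean of 9.31 to 10.86 in WKY and of 8.09 to 9.55 in LEW, and 5 were higher on CAF and 9 on STD, such as Pglyrp1 (2.08 and 2.64). Of 6 markers listed for plasmablasts 3 were higher on CAF and 4 on STD, led by Jchain (2.27 and 2.08), and 0 were lower. The list had means of 8.94 to 9.27 in WKY and 8.26 to 8.73 in LEW.

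Of 12 monocyte markers 4 were lower in WKY on each diet and 1 was higher on STD, such as Fn1 (-1.39 and -1.28) and Ccr2 (-1.38 and -1.01), with list means of 9.82 to 10.40 in WKY and 10.41 to 10.70 in LEW. Of 11 T cell markers 2 were lower on CAF and 4 on STD, such as Cd2 (-1.17 and -1.05), with list means of 10.81 to 11.11 in WKY and 10.97 to 11.32 in LEW. Of 15 erythroid markers 1 was higher and 3 were lower on CAF, and 1 higher and 2 lower on STD, with list means of 7.93 to 8.82 in WKY and 7.97 to 9.64 in LEW. Of 5 platelet markers 0 passed on CAF and 2 were lower on STD, Ppbp (-0.54) and Pf4 (-0.32), with list means of 11.89 to 12.32 in WKY and 12.09 to 12.84 in LEW. Of 4 B cell markers and 7 markers of immature myeloid and progenitor cells 0 passed on either diet. The B cell list had means of 10.03 to 10.40 in WKY and 9.71 to 10.34 in LEW, and the progenitor list means of 6.16 to 6.34 in all 20 rats. No marker passed in a diet comparison. The part of cell composition in the strain differences of Pcna, Rrm1 and the other members was not tested.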

How the data were processed

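RNA from adherent blood cells of 20 rats was hybridised to 20 Rat Gene 1.0 ST arrays. The authors deposited log2 signals of 28826 probe sets per array, background corrected, normalised and summarised by RMA per the methods of the study, while the submitters' processing notes name MAS5. The values ran from 3.57 to 14.37. Array date and batch were not given in the sources used here, and precision is limited by the 5 rats per group. Gene symbols came from the platform annotation, in which 15209 probe sets had 1 symbol, 306 several and 13311 were not listed. Only probe sets of 1 symbol were named, and the probe set of the highest mean was used for Ccnb2, Rrm1 and Rrm2, which have 2 each.

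A linear model with 1 mean per group was fitted to all probe sets with limma 3.58.1 in R 4.3.3 (lmFit, contrasts.fit, eBayes without trend), with 16 residual and 3.67 prior degrees of freedom. P-values were adjusted by Benjamini-Hochberg over the 28826 probe sets of each of 7 comparisons, with a threshold of 0.05. The script was tested on simulated data. The labels do not say whether rats shared cages or litters, and the p-values set each difference against the spread between these rats within groups. No value was tested over the list as a whole.

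The members and gene lists were chosen with earlier results of these data known. Every member was named with the range of its group means. Values of every rat were given for members that passed, up to 6 per comparison, or for the 3 of the smallest P where fewer than 3 passed, and further for Rrm2 and Bub1b, chosen after their values were seen. Other cell cycle genes that passed were named up to 8 per comparison, and markers up to 3 per list. Alternatives were a filter on dim probe sets, quantile normalisation, median centring, a fit of only the groups compared, trend with robust moderation, the mean of a gene's probe sets, an unadjusted P under 0.01, a replicate block and leaving out each rat. Promoters of GRCr8 were those of RefSeq.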

Additional observations from a re-analysis of the deposited data

Results flagged for a closer look

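Values of each member in each group of 5 rats were searched for a highest or lowest rat that stood far from the rest, with a limit that chance passes in about 1 of 20 groups. Of 132 groups, 6 held such a rat, in 5 genes, which is near the share that chance alone passes. Bub1b was high in LEW CAF rat 2, at 6.10, where the next rat stood at 5.52, and in WKY STD rat 1, at 7.00, where the next rat stood at 5.75. Both arrays also had a high mean over the 6 heat shock genes, and the part of that signal was not tested. Top2a was high in WKY CAF rat 2, at 6.43 with the next rat at 6.17. Mcm7 was high in WKY STD rat 1, at 10.15 with the next rat at 10.03. Kif2c was high in LEW STD rat 4, at 5.32 with the next rat at 5.18. Cdk1 was low in LEW CAF rat 5, at 5.23 with the next rat at 5.39.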

How the results depend on the processing

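The members named for a call or a smallest P with all 20 arrays kept their direction under each alternative that included them. The filter on dim probe sets left out Top2a, Ccnb1 and Plk4, whose means lie below the median of all probe sets. Without the 4 arrays of high heat shock values, signs turned for 2 to 5 of the 33 members per comparison, and 1 of these was a call, Prc1 averaged over diets (-0.01 with all arrays, 0.23 without the 4). The strain calls of Pcna and Rrm1 held on both diets and on average under all of them. Fitting only the groups compared left 2 members on STD, Pcna and Rrm1, with Aurka at an adjusted p of 0.0596 and Ccnb1 at 0.126 by limma. An unadjusted P under 0.01 in place of the adjusted threshold gave 4 members for the strains on CAF. It gave 1 each for CAF against STD in LEW (Ccnb1), in WKY (Pcna) and on average (Pcna), and for the interaction (Mcm5). The share of all probe sets at this threshold is not given here, so these counts have no background beside them. Without the 4 arrays of high heat shock values, an alternative added after seeing the data, 4 members passed on CAF. Leaving out each rat in turn gave 2 to 3 members for the strains on CAF, 3 to 5 on STD and 5 to 8 on average, and 0 in each diet comparison and in the interaction. Ccnb1 on STD and Ccnb2 on average were the calls that could be lost when 1 rat was left out. Their limma adjusted p-values then ran from 0.0168 to 0.11 for Ccnb1 and from 0.0143 to 0.0868 for Ccnb2. For Ccnb2 the limma adjusted p was 0.0728 after quantile normalisation and 0.0826 after median centring. With the replicate block, 3 members passed on CAF, 4 on STD and 6 on average, and 0 in the diet comparisons and the interaction. After group means were taken off, arrays of the same replicate number had correlations of -0.177 to 0.43, with a median of 0.0573 and 9 of 30 above 0.1. Arrays of other numbers and other groups had -0.438 to 0.431, with a median of -0.0192 and 21 of 120 above 0.1. Of the 20 arrays, 5 correlated best with their own number. These overlapping values cannot decide whether the numbers pair the samples. The files give no detection call, so whether the 16 members with means below the median of all probe sets lie near background was not tested.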
